A study of Bos taurus with 44 samples.

Results

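The genes described here are IL2, IL15 and the receptor chains IL2RA and IL2RG. They were chosen by symbol: each of the 1680 spots of the array whose annotation gave exactly 1 of these symbols was taken. This gave 32 spots, 8 for each gene, and 4 of the 141 named genes on the array. Entrez identifiers were 280822 for IL2, 281861 for IL2RA, 281862 for IL2RG and 281248 for IL15, all matched in the bovine RefSeq table. No spot carried the symbol of the other chains of these receptors, IL2RB and IL15RA, and these were not analysed here.

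Interleukin 2 is a cytokine made mainly by activated T cells. It drives T cell division and sustains regulatory T cells. Interleukin 15 is made mainly by monocytes, dendritic cells and non-blood cells, and maintains natural killer cells and memory CD8 T cells. Both cytokines signal through IL2RB and the common gamma chain, IL2RG, which is also part of the receptors for IL4, IL7, IL9 and IL21. Each has a private alpha chain that raises affinity, and for interleukin 2 this is IL2RA, also known as CD25, which is carried by activated and regulatory T cells.

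The samples were blood mononuclear cells of female Canadian Holstein cows, taken 6 days after immunization and not treated further. In the labels, cows are high or low responders for antibody (Ab) or for cell-mediated immunity (DTH). Cow 1 of the high groups was high-Ab and high-DTH and is called the shared cow. There were 2 further high-Ab cows, 2 further high-DTH cows, 3 low-Ab cows and 3 low-DTH cows, so that 11 cows gave 44 arrays. Of these cows 9 had 4 arrays, high-DTH cow 2 had 5 and low-DTH cow 3 had 3. Apart from the shared cow, an equal number in 2 groups was read as 2 animals, which the labels do not state. All cows, high and low, had been immunized, and the groups are classes of response, not treatments.

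On each array, amplified RNA of 1 cow was hybridised with that of an RNA standard common to all arrays, made from mononuclear cells too. Values are log2 ratios, read as cow over standard. This direction is likely but not stated, and under the opposite one all signs would swap together. A ratio against a standard of the same cell type does not show whether a gene was expressed at all, nor which of the genes was the most abundant. In such a mixed sample, fewer cells of a type and less RNA per cell cannot be told apart.

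For 3 arrays the sign is not settled. Of these, 2 (arrays 1 and 2) belong to low-Ab cow 1, and 1 (array 3) to low-DTH cow 3. Over all spots, their r with the arrays of the other cows averaged −0.23 to −0.20, against at least 0.051 for the other 41 arrays. Their lowest r with an array of the same cow was −0.67 and −0.73 in low-Ab cow 1 and −0.58 in low-DTH cow 3. In cows without such arrays, the lowest r within a cow was −0.24. Where arrays of a cow go opposite ways, they cancel in its value as deposited. They were kept as deposited, and results are also given with the sign of these 3 turned. Control spots of the bacterial gene vapA, of which there were 16, had a ratio of 0.027 ± 0.087 (SD, n = 11 cows). The values have no depth, and the number of arrays and cows limits their precision.

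All of these genes lay close to the standard, and IL15 varied most between cows. The SD over the 11 cows was 0.22 for IL15, 0.12 for IL2, 0.094 for IL2RA and 0.069 for IL2RG. The median of this SD over the 141 genes was 0.146. For the vapA control spots it was 0.087, above that of IL2RG and near that of IL2RA, with cows from −0.13 to 0.20. From the lowest, IL2RG ranked 11, IL2RA 33, IL2 60 and IL15 100 among the 141 genes. The median SD between arrays of 1 cow was 0.16 for IL2 and for IL15, and 0.18 for IL2RA and for IL2RG. Single arrays of a cow thus differed more than the cow values did for IL2, IL2RA and IL2RG, and less for IL15. A cow value averages the arrays of a cow over both dyes. The SD of single arrays is therefore not the technical error of a cow value.

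**Figure D1:**
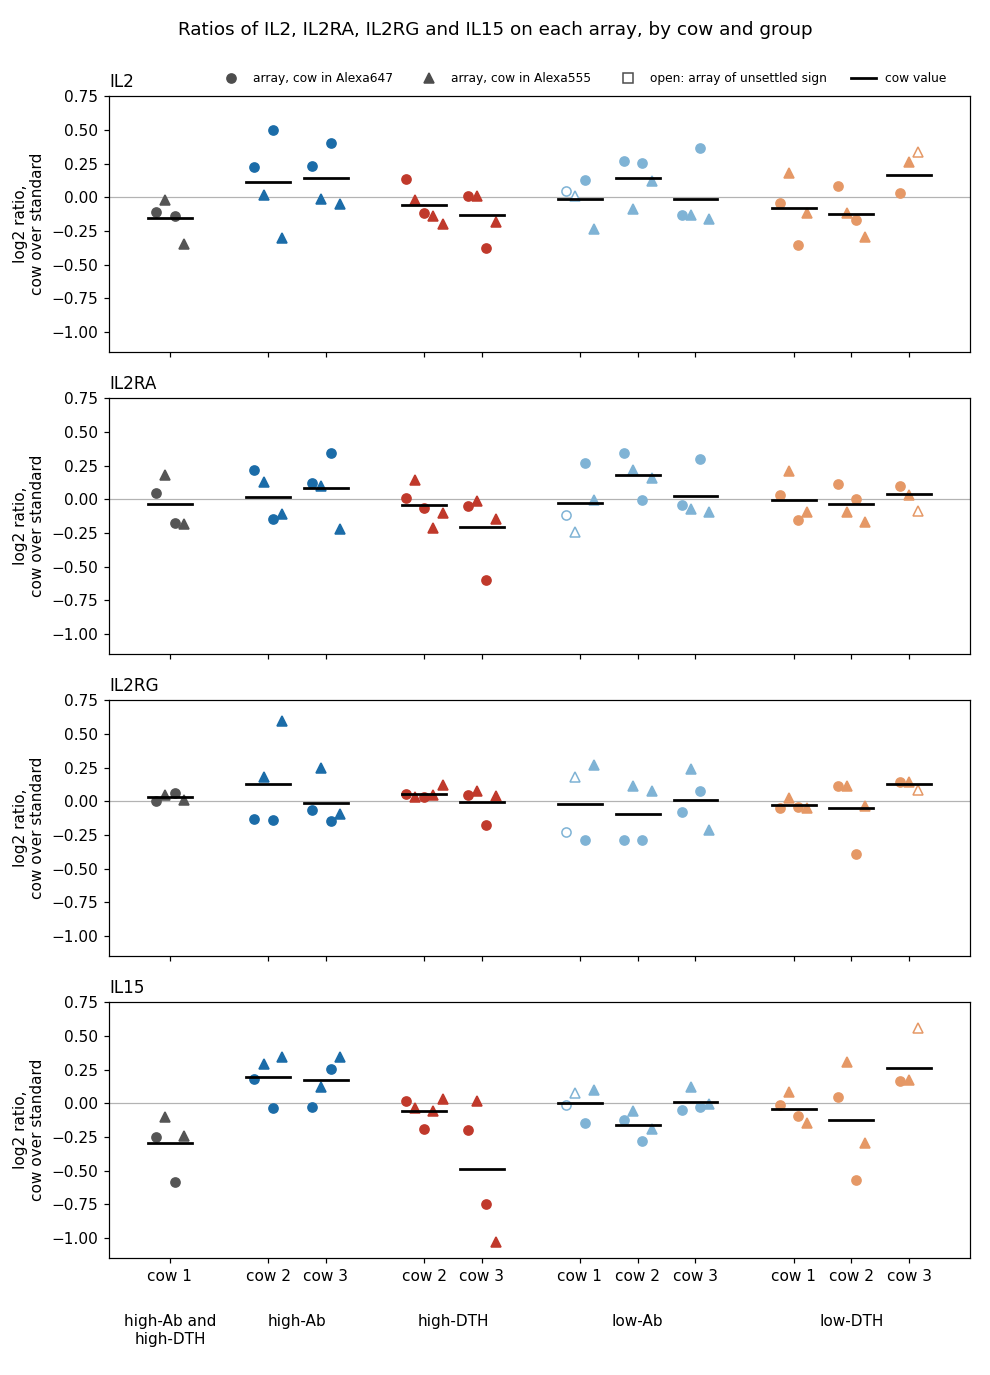
Log2 ratios (y axis, cow over standard) of IL2, IL2RA, IL2RG and IL15 on each of the 44 arrays, by cow and group (x axis). Circles are arrays with the cow in Alexa647, triangles arrays with the cow in Alexa555, open symbols the 3 arrays of unsettled sign, and black lines the cow values. IL15 reaches from −1.03 on array 4 of high-DTH cow 3 to 0.56 on array 3 of low-DTH cow 3.

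IL15, the cytokine that maintains natural killer cells, was at −0.30 in the shared cow. It was at 0.20 and 0.17 in the further high-Ab cows. It was at −0.054 and −0.49 in the further high-DTH cows. IL15 was therefore above the standard in both further high-Ab cows and below it in the shared cow and both further high-DTH cows. The share of the 141 genes that divide the high cows in this way was not counted. In low-Ab cows 1 to 3, IL15 was at 0.0038, −0.16 and 0.0084. In low-DTH cows 1 to 3 it was at −0.043, −0.13 and 0.26. With the unsettled arrays turned, low-Ab cow 1 was at −0.028 and low-DTH cow 3 at −0.015, which leaves no low cow above 0.0084.

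The lowest IL15 value, in high-DTH cow 3, rested on its later arrays. Array 1 of this cow read −0.20, array 2 read 0.017, array 3 read −0.75 and array 4 read −1.03. The arrays of this cow disagreed over all spots, with r = −0.24 between arrays 2 and 3. The SD of the spots was 0.64 on array 3, against 0.29 on array 1 and 0.30 on array 2. Array 3 had a mean r of 0.076 with the arrays of other cows, and on it IL2RA read −0.60, IL2 −0.37 and IL2RG −0.17. In low-DTH cow 2, array 1 read 0.044, array 2 read 0.31, array 3 read −0.57 and array 4 read −0.29. Arrays 3 and 4 were thus the low ones in both cows.

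IL2, the T cell growth factor, was at −0.15 in the shared cow. It was at 0.11 and 0.14 in the further high-Ab cows. It was at −0.055 and −0.13 in the further high-DTH cows. As for IL15, both further high-Ab cows were above the standard and the other high cows below it. In low-Ab cows 1 to 3, IL2 was at −0.012, 0.14 and −0.014. In low-DTH cows 1 to 3 it was at −0.082, −0.12 and 0.16. Low-DTH cow 3 had the highest IL2 value as deposited and lay at −0.0032 with its array of unsettled sign turned.

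IL2RA, the alpha chain, was at −0.034 in the shared cow. It was at 0.020 and 0.087 in the further high-Ab cows. It was at −0.045 and −0.20 in the further high-DTH cows. Both further high-Ab cows were above both further high-DTH cows, read on the same arrays as IL15 and IL2. Between these groups 68 of the 141 genes (48.2%) did not overlap. In low-Ab cows 1 to 3 it was at −0.024, 0.18 and 0.021, and in low-DTH cows 1 to 3 at −0.0020, −0.038 and 0.036. High-DTH cow 3 was the lowest cow for IL2RA as for IL15, and its array 3 read −0.60. Low-Ab cow 2 stood above the other low cows as deposited. With the unsettled arrays turned, low-Ab cow 1 was beside it at 0.16 and low-DTH cow 3 was at 0.078.

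IL2RG, the common gamma chain, was at 0.030 in the shared cow. It was at 0.12 and −0.015 in the further high-Ab cows. It was at 0.056 and −0.0032 in the further high-DTH cows. Unlike IL15, IL2 and IL2RA, it overlapped between these groups, where 68 of the 141 genes (48.2%) did not. In low-Ab cows 1 to 3 it was at −0.018, −0.096 and 0.0071, and in low-DTH cows 1 to 3 at −0.031, −0.050 and 0.13. No group of 2 or 3 cows lay on 1 side of 0 for IL2RG. With the unsettled arrays turned, low-Ab cow 1 was at 0.0086 and low-DTH cow 3 at 0.086.

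Ordered by group mean, IL15 was highest in the 2 further high-Ab cows at 0.18, followed by low-DTH cows at 0.031 ± 0.21 and low-Ab cows at −0.050 ± 0.097 (SD, n = 3 each). The 2 further high-DTH cows at −0.27 and the shared cow at −0.30 came last. IL2 followed the order high-Ab at 0.13, low-Ab at 0.038 ± 0.088, low-DTH at −0.014 ± 0.15, high-DTH at −0.094 and the shared cow at −0.15. For IL2RA the order was low-Ab at 0.058 ± 0.11, high-Ab at 0.053, low-DTH at −0.0016 ± 0.037, the shared cow at −0.034 and high-DTH at −0.12. For IL2RG it was high-Ab at 0.055, the shared cow at 0.030, high-DTH at 0.026, low-DTH at 0.016 ± 0.098 and low-Ab at −0.036 ± 0.054. Groups that neighbour each other in these orders overlapped, except that the shared cow lay outside the range of the further high-DTH cows for IL2 and IL2RA. With the 3 arrays turned, the order changed only for IL15, where low-Ab cows at −0.061 and low-DTH cows at −0.062 changed places.

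In the antibody comparison, 3 high-Ab cows, the shared cow included, were set against 3 low-Ab cows. None of the 4 genes passed the test. IL15 averaged 0.024 ± 0.28 in high-Ab cows against −0.050 ± 0.097 in low-Ab cows (SD, n = 3 each), and differed by 0.074 ± 0.16 (SE). IL2RG averaged 0.046 ± 0.071 in high-Ab cows against −0.036 ± 0.054 in low-Ab cows, and differed by 0.082 ± 0.089. IL2 differed by −0.0043 ± 0.12 and IL2RA by −0.034 ± 0.097. The 95% intervals were −0.30 to 0.45 for IL15, −0.28 to 0.27 for IL2, −0.27 to 0.20 for IL2RA and −0.13 to 0.30 for IL2RG.

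With limma the adjusted p was 0.954 for IL2RG and 0.999 for each of IL2, IL2RA and IL15. Features are the named genes and, 1 by 1, the spots without a single symbol. Over all features limma called 0 of 562 (0%). An unadjusted p under 0.05 was found for 37, 10 of them named genes and none of them among these genes. High-Ab and low-Ab cows overlapped for each of the 4 genes, whereas 15 of the 141 genes (10.6%) did not overlap. Turned, the 3 arrays gave differences of 0.085 for IL15, 0.0052 for IL2, −0.095 for IL2RA and 0.073 for IL2RG. The sign for IL2 thus depended on those arrays. IL15 differed by 0.23 without the shared cow and by −0.011 without high-Ab cow 2.

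In the cell-mediated comparison, 3 high-DTH cows, the shared cow included, were set against 3 low-DTH cows. IL15 had the lowest difference of the 4 genes and did not pass. It averaged −0.28 ± 0.22 in high-DTH cows against 0.031 ± 0.21 in low-DTH cows (SD, n = 3 each), and differed by −0.31 ± 0.16 (SE) with a 95% interval of −0.69 to 0.073. IL2 averaged −0.11 ± 0.051 in high-DTH cows against −0.014 ± 0.15 in low-DTH cows, and differed by −0.099 ± 0.11. Without low-DTH cow 3 the IL2 difference was −0.011. IL2RA averaged −0.094 ± 0.094 in high-DTH cows against −0.0016 ± 0.037 in low-DTH cows, and differed by −0.092 ± 0.089. IL2RG differed by 0.011 ± 0.090, with an interval of −0.21 to 0.23.

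The limma adjusted p was 0.576 for IL15, 0.788 for IL2RA, 0.802 for IL2 and 0.962 for IL2RG. Limma called 0 of 565 features (0%). An unadjusted p under 0.05 was found for 55, 12 of them named genes and again none of them among these genes. High-DTH and low-DTH cows overlapped for each gene, against 22 of 141 genes (15.6%) that did not. For IL15 the overlap came from high-DTH cow 2 at −0.054, which lay above low-DTH cow 2 at −0.13.

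With the 3 arrays turned, the IL15 difference was −0.22 ± 0.12, IL2 differed by −0.044, IL2RA by −0.11 and IL2RG by 0.025. Without high-DTH cow 3 the IL15 difference was −0.21, and without low-DTH cow 3 it was −0.19. By array number it was −0.22 ± 0.086 over arrays 1 and 2 (adjusted p = 0.413) and −0.47 ± 0.33 over arrays 3 to 5 (0.973), and by dye it was −0.28 with the cow in Alexa647 and −0.35 with the cow in Alexa555. Over the 17 alternatives that moved it, it lay between −0.47 and −0.19, and over all 19 the limma adjusted p was 0.366 to 0.973.

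Whether the high-minus-low effect differed between traits was tested in 1 fit of all 11 cows, in which the shared cow cancels. The effect for Ab exceeded that for DTH by 0.38 ± 0.19 for IL15, with an interval of −0.037 to 0.81 and an adjusted p of 0.568. For IL2 the Ab effect exceeded the DTH effect by 0.095 ± 0.13, for IL2RA by 0.058 ± 0.12 and for IL2RG by 0.071 ± 0.11, each with an adjusted p of 0.882 by limma. Of 561 features, limma called 7 (1.25%), 2 of them named genes and none of them among these genes. With the 3 arrays turned the values were 0.30 for IL15, 0.049 for IL2, 0.011 for IL2RA and 0.048 for IL2RG, and limma called 0 features, with 86 at an unadjusted p under 0.05.

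With each cow used once, 5 high cows were set against 6 low cows. IL15 ranged from −0.49 to 0.20 in high cows, with a median of −0.054, and from −0.16 to 0.26 in low cows, with a median of −0.020. IL2 ranged from −0.15 to 0.14 in high cows, with a median of −0.055, and from −0.12 to 0.16 in low cows, with a median of −0.013. High and low cows overlapped in both genes. The differences were −0.085 ± 0.13 for IL15, −0.029 ± 0.082 for IL2, −0.063 ± 0.068 for IL2RA and 0.048 ± 0.059 for IL2RG, each with an adjusted p of 0.996 by limma. The 95% intervals were −0.37 to 0.20 for IL15, −0.21 to 0.15 for IL2, −0.21 to 0.085 for IL2RA and −0.081 to 0.18 for IL2RG.

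Limma called 0 of 561 features in this comparison (0%), with 20 at an unadjusted p under 0.05, 6 of them named genes. Only 2 of the 141 genes (1.42%) did not overlap. Turning the 3 arrays gave −0.033 for IL15, 0.0030 for IL2, −0.10 for IL2RA and 0.051 for IL2RG. Two-sided exact permutation tests of each gene in the Ab, the DTH and the all-cow comparison gave p values of 0.2 to 1. The lowest adjusted value over these 12 tests was 0.790, and 3 against 3 cows cannot go below an exact p of 0.1.

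The traits were also compared within a response class. Among low cows, IL2 differed by 0.052 ± 0.10 between low-Ab and low-DTH cows, IL2RA by 0.060 ± 0.090, IL2RG by −0.052 ± 0.089 and IL15 by −0.081 ± 0.14. The limma adjusted p lay between 0.892 and 0.919. Of 561 features limma called 3 (0.535%), 1 of them a named gene, and 19 of 141 genes (13.5%) did not overlap. None of either was among these genes. Turning the 3 arrays gave 0.098 for IL2, 0.11 for IL2RA, −0.029 for IL2RG and 0.0014 for IL15.

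For IL15, IL2 and IL2RA the differences furthest from 0 lay between the 2 further high-Ab and the 2 further high-DTH cows. IL15 differed by 0.46 ± 0.18, with a 95% interval of 0.055 to 0.86, an unadjusted p of 0.0302 and a limma adjusted p of 0.371, so it did not pass. IL2 differed by 0.22 ± 0.12 and IL2RA by 0.18 ± 0.11, each with an adjusted p of 0.544, and IL2RG by 0.028 ± 0.11 with 0.942. IL15, IL2 and IL2RA were higher in both high-Ab cows than in both high-DTH cows, and IL2RG overlapped. With 2 cows a group this is common: 68 of the 141 genes (48.2%) did not overlap. Limma called 0 of 561 features (0%), and 58 had an unadjusted p under 0.05, 17 of them named genes.

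The shared cow, which is both high-Ab and high-DTH, was below both further high-Ab cows in IL15, IL2 and IL2RA. In IL2RG it lay between them. The share of the 141 genes in which it lay below both was not counted. Without high-DTH cow 3 the IL15 difference between high-Ab and high-DTH cows was 0.24, and without high-DTH cow 2 it was 0.67. Over arrays 1 and 2 alone IL15 was at 0.23 and 0.046 in the high-Ab cows, against −0.011 and −0.090 in the high-DTH cows. Over arrays 3 to 5 it was at 0.16 and 0.30 in the high-Ab cows, against −0.10 and −0.89 in the high-DTH cows. IL15 was higher in both high-Ab cows in either set of arrays, but both sets come from the same cows and add no replicates. Over arrays 1 and 2 the nearest values were 0.046 and −0.011, each a mean of 2 arrays. The median SD between single arrays of 1 cow was 0.16. No unsettled array belongs to these cows, and turning the 3 arrays changed only the error, with adjusted p of 0.322 for IL15, 0.397 for IL2 and 0.407 for IL2RA by limma. For this comparison the alternatives run were turning or leaving out the 3 arrays, scaling, and leaving out each cow. Of these, only 5 moved the difference, scaling and leaving out each of the 4 cows. With these IL15 differed by 0.24 to 0.67, with a limma adjusted p of 0.277 when scaled. Fits by array set, dye, averaging or quantile normalization were not run for it.

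**Figure D2:**
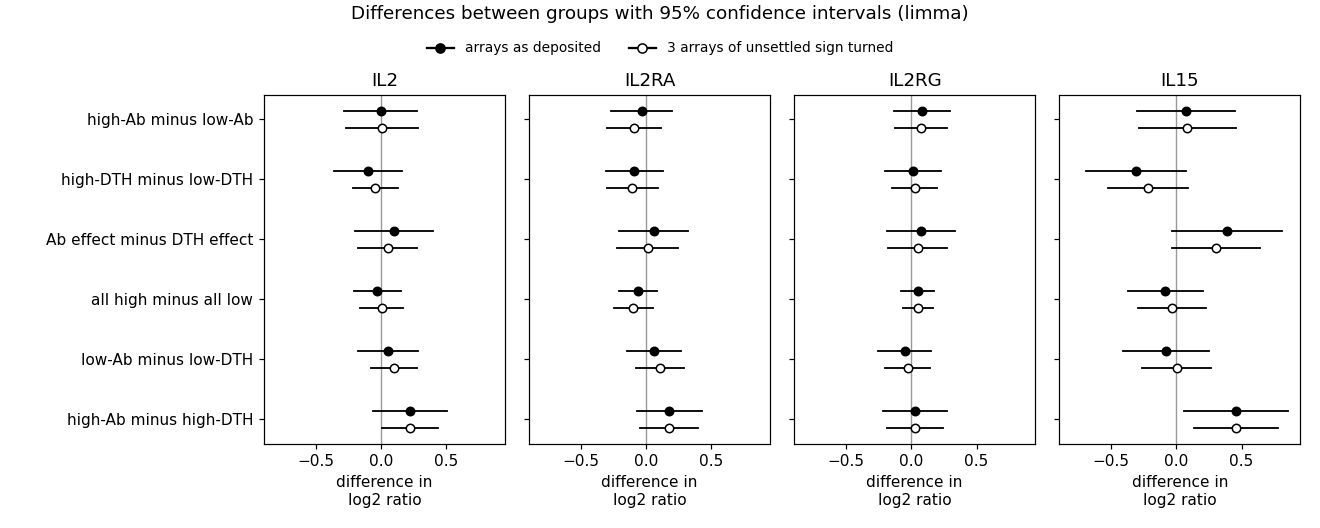
Differences in log2 ratio (x axis) with 95% confidence intervals from limma for IL2, IL2RA, IL2RG and IL15 in the 6 comparisons (rows). Filled points use the arrays as deposited and open points the 3 arrays of unsettled sign turned. As deposited, the interval leaves out 0 only for IL15 between high-Ab and high-DTH cows (0.46, 0.055 to 0.86), before adjustment.

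Readings were compared between dyes within each cow. In a test added after these values had been seen, IL2RG was lower with the cow in Alexa647 than in Alexa555 by −0.17 ± 0.063 (below 0 in 9 of 11 cows) and IL15 by −0.13 ± 0.044 (10 of 11 cows). The limma adjusted p was 0.0810 for IL2RG and 0.0630 for IL15, so neither passed. IL2 differed by 0.12 ± 0.071 (above 0 in 8 of 11 cows) and IL2RA by 0.057 ± 0.056 (7 of 11). Over all features, limma called 68 of 561 (12.1%). Turning the 3 arrays gave −0.13 for IL2RG, −0.075 for IL15, 0.15 for IL2 and 0.038 for IL2RA, and 38 features called. In high-Ab cow 2, IL2RG read −0.13 and −0.14 with the cow in Alexa647 and 0.18 and 0.59 with the cow in Alexa555. Each cow value averages both dyes with equal weight.

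Readings were also compared between array numbers, although no label says what separates arrays 1 and 2 from later ones. Later arrays read lower than arrays 1 and 2 by −0.14 ± 0.099 for IL15 and −0.13 ± 0.068 for IL2RA, below 0 in 9 of 11 cows for each. IL2 differed by −0.065 ± 0.066 and IL2RG by −0.061 ± 0.056. Of 560 features, limma called 0 (0%) between these sets, and the adjusted p was 0.671 for IL2RA and 0.754 for IL15. With the 3 arrays turned, limma called 26 features and the differences were −0.24 ± 0.095 for IL15 (adjusted p = 0.123) and −0.14 ± 0.057 for IL2RA (0.117). In the DTH cows the median SD of all spots of an array was 0.51 on arrays 3 to 5 and 0.32 on arrays 1 and 2. Over all spots, ratios were thus wider on the later arrays of these cows. With each array scaled to the same SD, an alternative added after seeing the data, IL15 differed by −0.28 between high-DTH and low-DTH cows and by 0.39 between high-Ab and high-DTH cows.

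**Figure D3:**
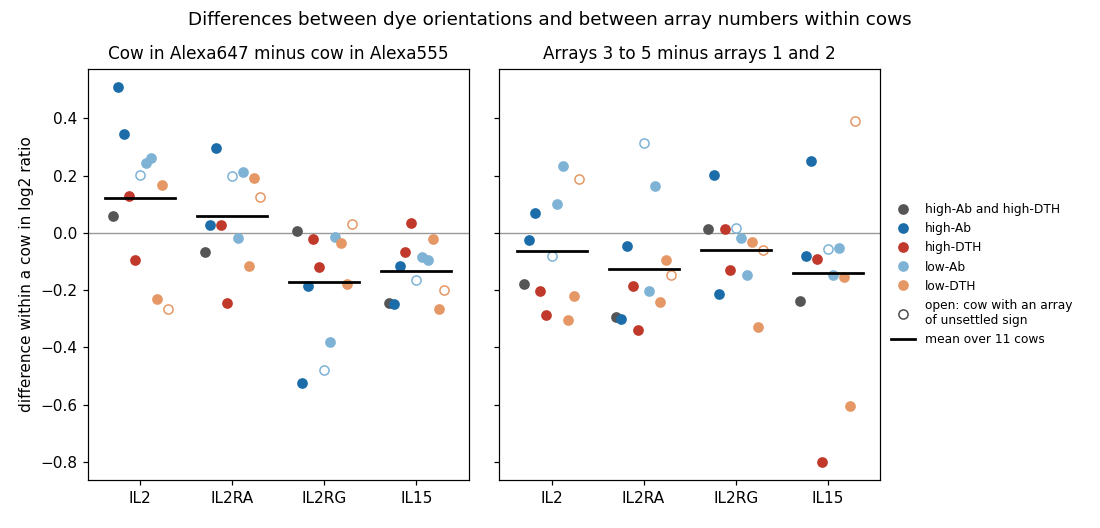
Differences within each of the 11 cows in log2 ratio (y axis) for IL2, IL2RA, IL2RG and IL15, between dye orientations (left) and between array numbers (right). Points are cows coloured by group, open points the 2 cows with an array of unsettled sign, and black lines the means. With the cow in Alexa647, IL15 is lower in 10 of 11 cows and IL2RG in 9 of 11.

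With the arrays as deposited, the values of IL2 over the 11 cows correlated with those of its receptor chain IL2RA and of IL15. The permutations shuffled all 11 cows regardless of group, so differences between groups enter the p values. For IL2 and IL2RA, Pearson's r was 0.75 (permutation p = 0.00131, adjusted over the 6 pairs 0.00786) and Spearman's rho 0.82 (permutation p = 0.00327, adjusted 0.0196). Without the 2 cows farthest from the median of IL2, r was 0.76. For IL2 and IL15, r was 0.75 (permutation p = 0.00751, adjusted 0.0225) and rho 0.76 (permutation p = 0.00883, adjusted 0.0265), and r was 0.59 without the same cows. Of the 9870 pairs of named genes, 1.83% had an r at or above that of IL2 with IL2RA and 1.94% one at or above that of IL2 with IL15. The median r over all pairs was 0.0085.

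The other 4 pairs did not pass. IL2RA with IL15 had r = 0.56, IL2RG with IL15 0.49, IL2 with IL2RG 0.25 and IL2RA with IL2RG −0.18. Their permutation p values, adjusted over the 6 pairs, were 0.147, 0.184, 0.540 and 0.603. Without low-Ab cow 2, in which IL2RA was high and IL15 low, IL2RA with IL15 had r = 0.88 (adjusted permutation p = 0.00207), and without high-DTH cow 3 it had r = 0.16 (adjusted permutation p = 0.659).

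Both correlations that passed depended on how the arrays were used. Turning the 3 arrays gave an r of 0.67 for IL2 with IL2RA and for IL2 with IL15, and neither passed by r (adjusted permutation p = 0.0658 for each). By rho, IL2 with IL2RA passed (0.77, adjusted permutation p = 0.0432) and IL2 with IL15 did not (0.70, 0.0619). Leaving out the 3 arrays gave r of 0.68 and 0.71 (adjusted permutation p = 0.0523 for each), while both passed by rho (0.75 and 0.74, adjusted permutation p = 0.0402 for each). Over arrays 1 and 2, r was 0.47 for IL2 with IL2RA and 0.41 for IL2 with IL15, and over arrays 3 to 5 it was 0.57 and 0.80, where only IL2 with IL15 passed by r (adjusted permutation p = 0.0122). With the cow in Alexa647, r was 0.73 for IL2 with IL2RA and 0.58 for IL2 with IL15, and with the cow in Alexa555 it was 0.36 and 0.35. After subtraction of group means in the 10 cows other than the shared cow, r was 0.70 and 0.55, and no p was computed. In this setting the highest r was 0.76, for IL2RG with IL15, a pair that had not passed before the subtraction. The other pairs were at 0.43 (IL2 with IL2RG), 0.31 (IL2RA with IL15) and −0.095 (IL2RA with IL2RG). The 2 genes of a pair share arrays, dyes and RNA, so a correlation between them over cows includes what moved both on an array.

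When 1 cow was left out at a time, IL2 with IL2RA passed by r each time, with r between 0.71 and 0.79. By rho it did not pass without high-Ab cow 3, high-DTH cow 3 or low-DTH cow 3 (rho of 0.79, adjusted permutation p of 0.0516 to 0.0544). IL2 with IL15 did not pass by r without the shared cow (r = 0.70), high-Ab cow 2 (0.71), high-Ab cow 3 (0.71), high-DTH cow 3 (0.72) or low-DTH cow 3 (0.68), with adjusted permutation p of 0.0520 to 0.0913.

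**Figure D4:**
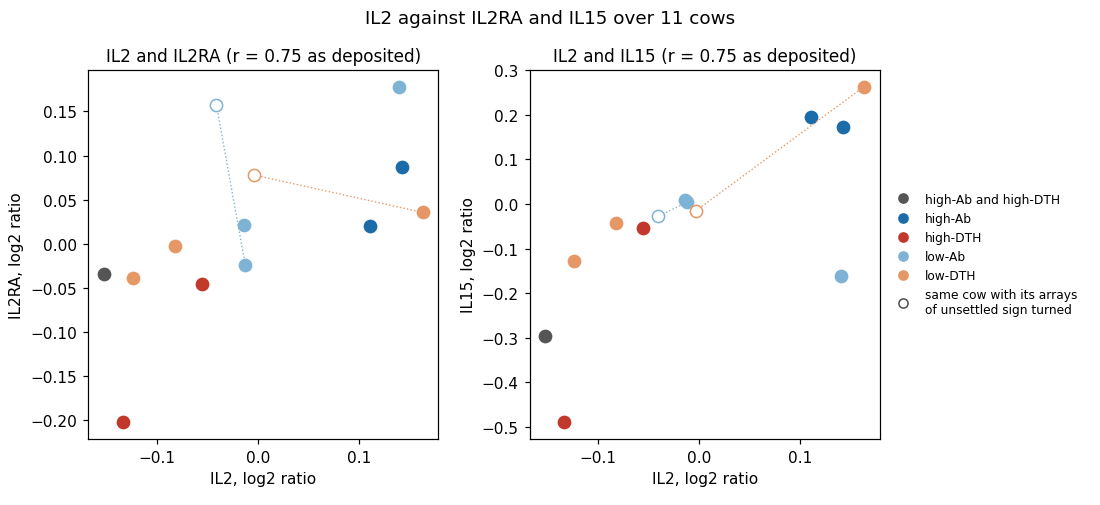
Cow values of IL2 (x axis, log2 ratio) against IL2RA and IL15 (y axes, log2 ratio) for the 11 cows, coloured by group. Dotted lines lead from the 2 cows with arrays of unsettled sign to their values with those arrays turned (open). Low-Ab cow 2, with IL2 at 0.14, IL2RA at 0.18 and IL15 at −0.16, lies off the trend of the other cows in IL15.

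The named genes whose pattern over the 11 cows was most like that of each gene were listed by Pearson's r, as a description. For IL2 these were BCL2, which blocks cell death, with r = 0.92, TXLNA, also called interleukin 14, with 0.80, and the interleukin 10 receptor chain IL10RA with 0.79. For IL2RA they were SDF1 with 0.86, the costimulatory ligand CD80 with 0.79 and TXLNA with 0.75. For IL2RG they were the superoxide dismutase SOD1 with 0.88, the T cell receptor chain CD247 with 0.77 and FASLG, the ligand of the death receptor FAS, with 0.72. For IL15 they were HPRT1, an enzyme of purine salvage, with 0.86, the growth hormone receptor GHR with 0.85 and IGIP, a peptide that induces IgA, with 0.82. With the 3 arrays turned, BCL2 (0.90), SDF1 (0.90) and SOD1 (0.87) stayed first for IL2, IL2RA and IL2RG, and GHR (0.83) came before HPRT1 (0.81) for IL15. Other neighbours depended on those arrays: IL10RA was then at 0.51 (rank 20) for IL2, CD80 at 0.57 (rank 13) for IL2RA and FASLG at 0.53 (rank 15) for IL2RG, while IGIP was at 0.71 (rank 5) for IL15.

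The rest of the pathway was sparsely covered by the array. Of 12 genes listed from or beside the common gamma chain family, 2 were measured, the cytokine IL4 and its receptor IL4R. The list included TSLP and CRLF2, which are not of that family. Between high-Ab and low-Ab cows IL4 differed by −0.051 ± 0.11 and IL4R by −0.079 ± 0.11. Between high-DTH and low-DTH cows IL4 differed by −0.024 ± 0.078 and IL4R by 0.017 ± 0.14. Of 17 signalling genes, 2 were measured. STAT3 differed by 0.035 ± 0.089 for Ab and 0.019 ± 0.086 for DTH, and STAT6, the transcription factor of IL4 signals, by −0.056 ± 0.11 and −0.18 ± 0.099. None of these passed in either comparison by limma.

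Of 17 genes that IL2 or IL15 are known to raise in T and natural killer cells, 8 were measured, and 0 passed in either trait by limma or had an unadjusted p under 0.05. In the Ab comparison 3 were higher and 5 lower in high-Ab cows, with a median of −0.039, against −0.0089 over all 141 genes. CD44, an adhesion receptor of activated T cells, differed by −0.24 ± 0.12, BCL2 by 0.17 ± 0.22 and interferon gamma, IFNG, by 0.11 ± 0.12. In the DTH comparison 2 were higher and 6 lower in high-DTH cows, with a median of −0.070, against −0.031 over all 141 genes. BCL2 differed by −0.27 ± 0.24, the regulatory cytokine IL10 by 0.24 ± 0.21 and the early activation marker CD69 by 0.23 ± 0.27.

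Of 16 interferon response genes, which were listed because interferons raise IL15, 4 were measured, IRF1, PSMB8, PSMB9 and PSMB10. All 4 were higher in high-Ab than in low-Ab cows, with a median of 0.066, and 0 passed or had an unadjusted p under 0.05. Of all 141 genes, 64 were higher in high-Ab cows, with a median of −0.0089. All 4 were lower in high-DTH than in low-DTH cows, with a median of −0.33. Of all 141 genes, 85 were lower in high-DTH cows, with a median of −0.031. By limma 0 of the 4 passed for DTH, although PSMB9 and PSMB10 had unadjusted p values of 0.0450 and 0.0328. The medians of the 4 genes were 0.18 and −0.47 when the 3 arrays were turned. The relation of these genes to IL15 was not tested.

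Markers of the cells that carry or make these genes were set beside them, and 0 of them passed by limma in either trait. Of 11 T cell markers 7 were measured, and their mean ratio lay between 0.32 and 0.69 in high-Ab cows and between −0.038 and 0.17 in low-Ab cows. It lay between 0.37 and 0.69 in high-DTH cows and between 0.0014 and 0.35 in low-DTH cows. This mean was thus higher in the high cows of both traits, but the shared cow counts in both and gave the 0.69. Of single genes, 15 of 141 (10.6%) did not overlap for Ab and 22 of 141 (15.6%) for DTH. The differences furthest from 0 for Ab were 0.62 for CD3D, 0.59 for CD247 and 0.53 for CD3G. For DTH they were 0.68 for CD3D, 0.56 for CD3G and 0.35 for CD3E. Of the 7 markers, 6 were higher for Ab and 7 for DTH, against 64 and 56 of all 141 genes. The 7 markers had median differences of 0.41 and 0.33 (0.27 and 0.21 with the 3 arrays turned), while IL2, which T cells make, differed by −0.0043 and −0.099. Their part in the values of IL2 and its receptor chains was not tested.

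Of 9 natural killer cell markers 2 were measured, FCGR3A and XCL1, with a mean between −0.25 and 0.49 in high-Ab and −0.095 and 0.72 in low-Ab cows, and between −0.25 and 0.22 in high-DTH and 0.028 and 0.28 in low-DTH cows. Of 9 monocyte markers 3 were measured, and their mean lay between −0.12 and −0.099 in high-Ab and −0.12 and −0.026 in low-Ab cows, and between −0.10 and 0.062 in high-DTH and −0.24 and 0.020 in low-DTH cows. Median differences for Ab and for DTH were −0.051 and 0.094 for monocyte markers, and −0.19 and −0.14 for natural killer cell markers. Of 6 neutrophil markers 2 were measured. LTF differed by −1.04 ± 0.54 for Ab and −0.041 for DTH, and CXCR2 by −0.015 and 0.029, so that the Ab median of −0.53 rested on LTF. Median differences for Ab and DTH were −0.038 and −0.28 for B cells (of 9 markers, 4 were measured), and 0.76 and 0.45 for CD163L1, the 1 measured of 2 gamma delta T cell markers. None of the platelet or red cell markers was measured. Of 6 genes of stress and RNA quality 3 were measured, with median differences of 0.19 for Ab and 0.026 for DTH (0.22 and −0.24 with the 3 arrays turned). The part of these cells and of RNA quality in the IL15 values was not tested.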

How the data were processed

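Per the labels' protocols, blood mononuclear cells were isolated on Percoll, and RNA went through 1 round of amplification and labelling with Alexa647 or Alexa555, the dyes being swapped among the arrays of each cow. The authors deposited log ratios, 1 for each spot of an array, which were taken as log2 values. How they were scanned, background-corrected and normalized, and their log base, is not given in the sources used here, and spot intensities were not analysed.

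Spots of a gene were averaged, then arrays within each dye orientation, then the 2 orientations, which gave 1 value per cow. Of 352 spot values per gene, IL2 lacked 5, IL2RA 4, IL2RG 5 and IL15 none. The arrays of a cow are technical replicates and cows are the replicates of a group. The labels do not say more about how animals were kept or chosen. The test was limma 3.58.1 in R 4.3.3 (lmFit, eBayes) over all features, that is named genes and, 1 by 1, spots without a single symbol, with Benjamini-Hochberg adjustment at 0.05. The limma script was tested on simulated data with added differences larger than any found for these genes. Its power at differences of their size was not examined. Low-Ab minus low-DTH and high-Ab minus high-DTH were contrasts of 1 fit of all 11 cows. Correlations used 100000 permutations (Python 3.11.15). The genes, lists and tests were chosen with earlier results of these data known. Named beside them are the 3 genes of highest r with each, and of each list the genes that passed or else at most the 3 furthest from 0. Alternatives changed the sign or use of the 3 arrays, the array set, the dye, averaging, scaling and the fit, and left out each cow. Not every alternative was run for every comparison. Same-numbered cows of different groups were taken as different animals. The deviations of same-numbered high and low cows of a trait had r between −0.59 and −0.014 over features, so the numbers were not used to pair them. High and low cows of different traits were not checked in this way.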

Additional observations from a re-analysis of the deposited data

Results flagged for a closer look

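IL2RA in low-Ab cow 2, at 0.18, stood apart from the other 5 low cows, which lay between −0.038 and 0.036. Its gap to the nearest of them was 0.66 of the range of the 6 low cows, more than Dixon's limit at 95%. Chance gives such a gap in about 1 of 20 groups, and 8 groups were examined. The 4 arrays of this cow read 0.34, 0.22, −0.0043 and 0.16. With the arrays of unsettled sign turned, low-Ab cow 1 lay at 0.16, beside this cow, and low-DTH cow 3 at 0.078.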

How the results depend on the processing

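None of the 4 genes passed in any comparison under any alternative run for it. For the 2 comparisons within a response class, only the 3 arrays, scaling and the cows used were varied. Some alternatives cannot move a difference, such as leaving out a cow that is not in it. Of the values that moved, 161 of 176 without 1 cow and 168 of 184 under other alternatives kept their direction. The others changed sign as follows. The IL2 difference in the Ab comparison was 0.0052 with the 3 arrays turned, 0.0093 with them left out, 0.060 over arrays 1 and 2, 0.030 with the cow in Alexa647 and 0.020 with the median over spots. In the all-cow comparison IL2 differed by 0.0030 with the arrays turned, 0.016 over arrays 1 and 2 and 0.034 with the cow in Alexa647. Over arrays 1 and 2 IL2RA differed by 0.12 for Ab and 0.049 for all cows, and the difference between its effects was −0.063 over arrays 3 to 5 and −2.1e-04 with the cow in Alexa555. IL2RG in the DTH comparison differed by −0.038 over arrays 1 and 2 and −0.012 with the median over spots, which gave −0.0078 in the all-cow comparison. IL15 between low-Ab and low-DTH cows was 0.0014 with the arrays turned. The cause was not tested.

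Leaving out 1 cow at a time gave these ranges. In the Ab comparison IL2 lay between −0.059 and 0.089, IL2RA between −0.075 and 0.026 and IL15 between −0.011 and 0.23. IL2RG in the DTH comparison lay between −0.022 and 0.068. In the all-cow comparison IL2 lay between −0.069 and 0.0042 and IL15 between −0.16 and 0.014. Between low-Ab and low-DTH cows IL2 lay between −0.0025 and 0.14, IL2RG between −0.085 and 0.0046 and IL15 between −0.16 and 0.035. Between high-Ab and high-DTH cows IL2RG lay between −0.041 and 0.098. Correlations lay between −0.0027 and 0.58 for IL2 with IL2RG, 0.68 and 0.90 for IL2 with IL15, −0.33 and 0.23 for IL2RA with IL2RG and 0.16 and 0.88 for IL2RA with IL15.

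The features called by limma changed more. An array-level fit with the cow as a random block called 16 in the Ab, 2 in the DTH and 9 in the all-cow comparison, where the cow-level fit called 0. For the difference between the effects it called 2 and a fit of named genes 2, against 7. The count was 4 with plain means, 1 with scaled arrays, and 0 with the 3 arrays turned or left out, with either array set, either dye or quantile normalization. Between low-Ab and low-DTH cows it was 1 with the arrays turned, left out or scaled, against 3. Without 1 cow, counts lay between 0 and 1 in the Ab comparison, 0 and 7 for the difference between the effects, 0 and 4 between the low groups and 0 and 1 between the further high cows. With the cow number as a replicate block, 0 features were called in either trait, and IL15 in the DTH comparison had an adjusted p of 0.912 (limma).

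Correlations also depended on the arrays. For IL2 with IL2RA, r was 0.67 with the 3 arrays turned, 0.68 with them left out, 0.47 over arrays 1 and 2, 0.57 over arrays 3 to 5 and 0.36 with the cow in Alexa555. For IL2 with IL15 it was 0.67 turned, 0.71 left out, 0.41 over arrays 1 and 2, 0.58 in Alexa647, 0.35 in Alexa555 and 0.64 scaled. None of these passed by Pearson's r. For IL2 with IL2RG, r changed to −0.069 over arrays 1 and 2, −0.43 in Alexa647, −0.055 in Alexa555 and −0.11 scaled. IL2RA with IL2RG had 0.0048 in Alexa555, and IL2RA with IL15 had −0.070 over arrays 1 and 2 and −0.069 in Alexa555. The correlations by array set and dye, and scaling, were chosen after seeing the data.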
